A study of Mus musculus with 2 samples.

Results

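The module comprised 34 mouse genes that encode RNA-binding proteins acting on splicing, stability or translation of RNA in the nervous system, given as a list of names, with no measured value in the rule. All 34 were found among the 43346 gene rows of the tables, each as 1 row, and they fell into 12 families, with Qk alone in its own. The data were total RNA-seq libraries from 2 newborn pups (postnatal day 0) of strain B6NCrl, which the labels number pup 2 and pup 1 and tie to the same pregnant female. Each library came from the neural tube of a single pup, with sex not collected, and both pups form the only group, so that n = 2, no condition was compared and no p-value was computed. The mirVana kit was used for extraction, fragments longer than 200 bases were taken, and 10 ng with added spike-in RNA entered each library. A SMARTer low-input kit manual is listed among the protocols.

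Most genes of multicellular animals are cut and joined in more than one way, and RNA-binding proteins that sit on or beside an exon decide whether that exon is kept. In neurons, the replacement of Ptbp1 by Ptbp2 and the appearance of the Nova, Rbfox, neuronal Elavl and Celf proteins set the neural splicing program. Musashi, Quaking and the Fmr1 family include regulators of the stability and translation of messages. Several of these genes splice their own transcripts in alternative ways, so their messages are both tools and products of the program.

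The pup 2 library held 40003518 estimated reads on genes and the pup 1 library held 26916916, so a gene with no read could still hold 3 reads, or 0.075 CPM (reads scaled to a fixed library total) in pup 2 and 0.111 CPM in pup 1. The tissue label was checked against marker genes. All 8 neuron markers were detected, from 91.7 TPM for Syn1 to 1171 TPM for Gap43 (means of both pups; TPM is a level divided by transcript length and scaled to a fixed total), as were all 5 Hox genes of the spinal cord, from 21.8 TPM for Hoxc9 to 105.3 TPM for Hoxa7. None of the 5 forebrain and midbrain markers was detected, the highest being Emx2 at 0.06 TPM, and Otx1 and Otx2 had no read in either pup. Markers of sensory ganglia and of maturing oligodendrocytes differed between the pups, and their values are given with the pup ratios. Genes of glia, vessels, meninges, blood and muscle were also present, so that every level below is an average over mixed cells.

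Of the 34 genes, 33 reached 1 TPM in both pups, and Mbnl3 did not. Over all 21474 protein-coding genes the same held for 63.8%. The median level of the module was 35.5 TPM, against 5.51 TPM for protein-coding genes. Levels exceeded 100 TPM for 4 genes, lay between 10 and 100 TPM for 27 and were below 10 TPM for 3, and 5 genes stood above the 90th percentile of protein-coding genes. Together the module summed to 1803 TPM in pup 2 and 1935 TPM in pup 1. The SD over the pups was 6.67% of the mean for the median detected gene and 18.6% for the most variable, Rbfox2.

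**Figure D1:**
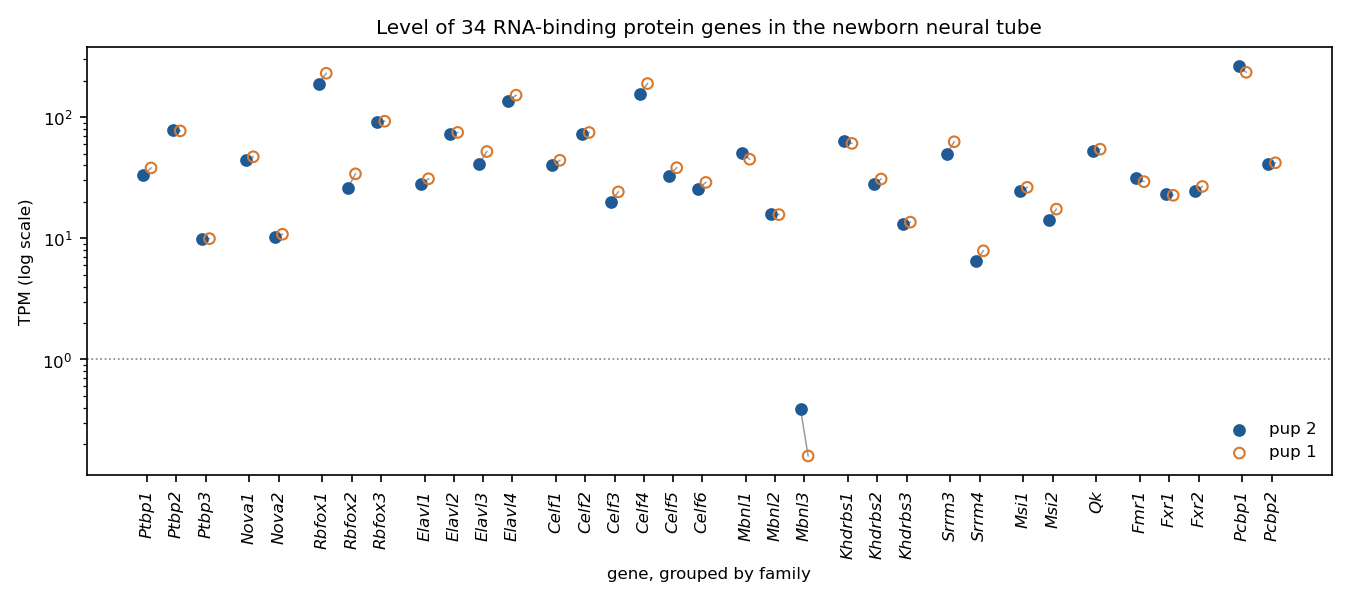
Level of each of the 34 genes in TPM (log axis), grouped by family, with a filled point for pup 2 and an open point for pup 1. The dotted line marks 1 TPM. All genes but Mbnl3 lie above the line in both pups, and Pcbp1, Rbfox1, Celf4 and Elavl4 are above 100 TPM.

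Ordered by mean TPM, the module ran from Pcbp1 at 248 TPM through Rbfox1 at 209 TPM, Celf4 at 172 TPM and Elavl4 at 143 TPM, then Rbfox3 at 92.0 TPM and Ptbp2 at 77.6 TPM. Rbfox1 and Celf4 overlapped between the pups, while Pcbp1, Elavl4, Rbfox3 and Ptbp2 were each apart from the next gene in the order. The lower end was formed by Khdrbs3 at 13.3 TPM, Nova2 at 10.5 TPM, Ptbp3 at 9.94 TPM, Srrm4 at 7.17 TPM and Mbnl3 at 0.275 TPM. In the middle of the order the ranks were not resolved: of the 33 pairs of neighbours, 16 had overlapping values, and from Fmr1 at 30.3 TPM to Msi1 at 25.5 TPM 7 genes formed an unbroken chain of overlaps.

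**Figure D2:**
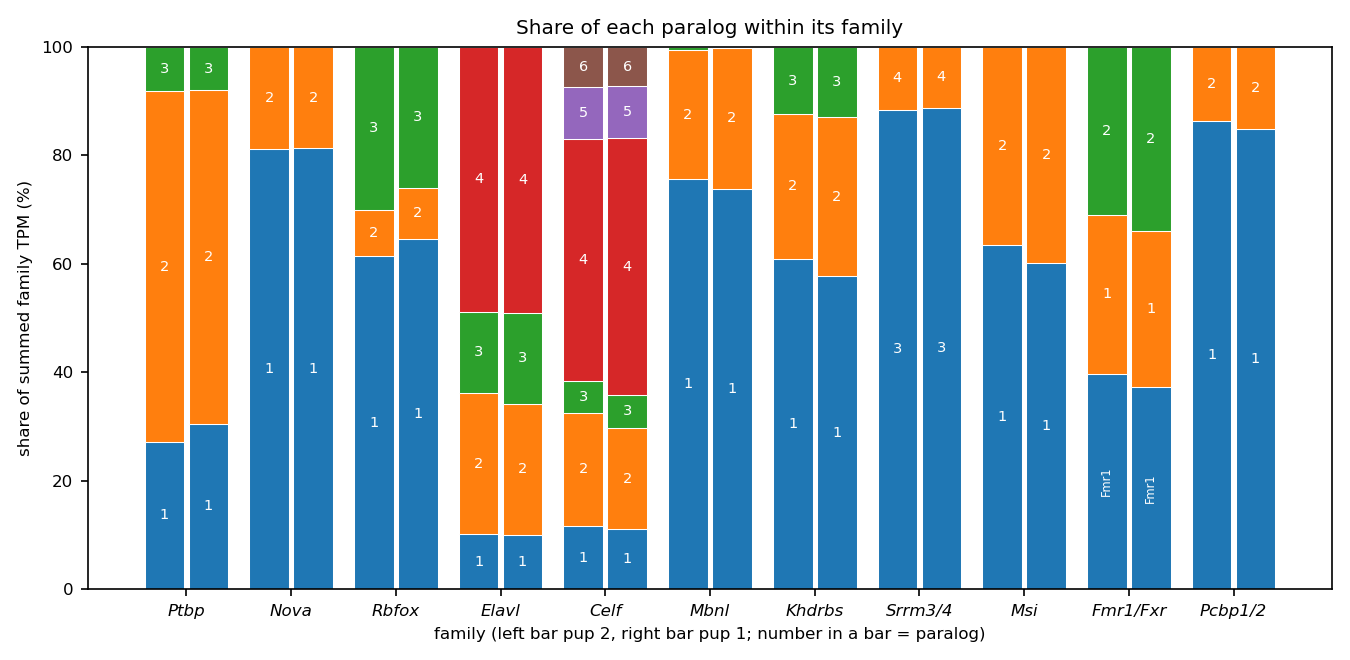
Share of each paralog in the summed TPM of its family (percent), with the left bar of each pair for pup 2 and the right bar for pup 1. Numbers in the bars are the paralogs, and the 3 sections of the Fmr1/Fxr bars are Fmr1, Fxr1 and Fxr2 from bottom to top. The same paralog leads in both pups in each of the 11 families drawn, from Fmr1 at 38.5% to Srrm3 at 88.6%.

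The Ptbp genes encode polypyrimidine tract-binding proteins, repressors of exon inclusion. Ptbp1 is the form of progenitors and non-neural cells and lowers Ptbp2 by making its transcript unstable, and Ptbp2 is the form of neurons. Ptbp2 (chr3:119718742-119784466, minus strand; coordinates and exon sequences throughout are from GENCODE M21 on GRCm38) had 78.4 TPM in pup 2 and 76.8 TPM in pup 1, and Ptbp1 (chr10:79854427-79864771, plus strand) had 33 TPM in pup 2 and 38.04 TPM in pup 1. Both paralogs were thus present, with Ptbp2 at 2.20 ± 0.251 times the TPM of Ptbp1 (SD, n = 2) and 63.1% ± 2.15 of the family. Ptbp3, the third paralog, had 9.94 TPM in pup 2 and 9.93 TPM in pup 1. In bulk tissue, more cells with Ptbp2 and more Ptbp2 RNA per cell cannot be told apart, and the same applies to every level here. Ptbp1 reads were partly shared with other genes, and Plppr3, which overlaps it by 251 exon bases on the opposite strand, held 5.86 times its count. The strand setting of the counting is not stated. Some pairs of genes on opposite strands held fractions of a read that complete each other. In pup 2, Celf5 held 3260.26 counts and Gm16105 6.74, and Celf2 held 7676.53 and Gm26565 11.47. In pup 1, Nova2 held 1245.2 counts and Gm26821 0.8. Reads of these pairs thus appear to have been divided across strands. Fxr1 held whole counts in both pups beside Dnajc19 on its opposite strand. The extent of such sharing between Ptbp1 and Plppr3 was not tested.

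Ptbp1 has a pair of alternative coding exons that vary its own product. The exon of 78 bases (chr10:79860117-79860194, plus strand) adds an in-frame segment between RNA-binding domains and is known to alter repressor strength. The exon of 34 bases (chr10:79862014-79862047, plus strand) is not a multiple of a codon, and its skipping is known from human cells as the route by which the protein lowers its own message. Both are shown 5′ to 3′ on the coding strand, in lower case throughout, since the values below count the transcripts that hold them.
Ptbp1 78-base exon: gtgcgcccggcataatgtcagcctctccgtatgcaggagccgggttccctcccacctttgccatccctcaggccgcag
Ptbp1 34-base exon: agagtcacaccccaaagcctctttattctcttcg
Transcripts with the 78-base exon carried 49.3% of the informative TPM, which is the TPM on transcripts that either hold or skip the exon, in pup 2 and 45.5% in pup 1. Transcripts with the 34-base exon carried 93.1% in pup 2 and 97.2% in pup 1. So the first was near an even mix in both pups and the second was mostly included. By TPM, the leading transcript differed between the pups. Ptbp1-216, which holds the 78-base exon, took 44.2% of the gene's TPM in pup 2 and 38.4% in pup 1. Ptbp1-202, which skips it, took 27.2% in pup 2 and 40.6% in pup 1. The authors' TPM intervals of these 2 transcripts overlapped in each pup, so their order was not resolved. By counts Ptbp1-216 led in both pups, with 51.3% in pup 2 and 46.3% in pup 1. The leader by TPM did not track the exon. All skipping transcripts held 15.3 TPM against 14.9 TPM for including ones in pup 2, and 17.5 TPM against 14.6 TPM in pup 1. In Ptbp3 a 34-base exon near the start of the gene was in 22.0% of informative TPM in pup 2 and 19.5% in pup 1. Ptbp3-201, which skips it, was the main Ptbp3 transcript at 53.2% of TPM in pup 2 and 53.1% in pup 1. Ptbp2 has a single transcript in the authors' annotation, so nothing can be read of its own alternative exon.

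The Nova genes encode KH-domain proteins that bind clustered YCAY motifs and were found as the targets of antibodies in a neurological disease. Nova1 (chr12:46694517-46818929, minus strand) had 44.4 TPM in pup 2 and 47.0 TPM in pup 1, and Nova2 had 10.3 TPM in pup 2 and 10.8 TPM in pup 1. Nova1 thus took 81.3% ± 0.0937 of the summed TPM of the pair (SD, n = 2), with a ratio of 4.34 ± 0.0267 to Nova2. Nova1 has 1 transcript in the annotation used. For Nova2 the order of transcripts by TPM differed between pups: Nova2-201 took 41.04% of TPM in pup 2 and 51.52% in pup 1. The rest lay on a transcript of 5110 bases that is not in the later annotation.

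Rbfox proteins bind the element UGCAUG, and Rbfox3 is the antigen known as NeuN, a standard marker of mature neurons. Rbfox1 (chr16:5885355-7411526, plus strand) had 188 TPM in pup 2 and 230 TPM in pup 1, Rbfox3 had 91.6 TPM in pup 2 and 92.3 TPM in pup 1, and Rbfox2, the form with the widest tissue range, had 26.08 TPM in pup 2 and 33.99 TPM in pup 1. The 3 genes did not overlap between pups, and Rbfox1 and Rbfox3 together reached 10.1 ± 0.871 times the TPM of Rbfox2 (SD, n = 2). This ratio depended on transcript length. The main Rbfox1 transcript, Rbfox1-202, is a model of only 1191 bases that took 82.6% of the gene's TPM in pup 2 and 84.8% in pup 1, but 56.5% of its counts in pup 2 and 60.4% in pup 1. The longer Rbfox1-201 took 17.4% of TPM in pup 2 and 15.2% in pup 1. By counts, with no division by length, the ratio of Rbfox1 and Rbfox3 to Rbfox2 was 2.75, and Rbfox1 held 44.5% of the family in place of 63.0%.

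Rbfox2 and Rbfox3 were each spread over several coding transcripts. In Rbfox2, Rbfox2-203 led with 58.3% of TPM in pup 2 and 63.2% in pup 1, before Rbfox2-202 with 26.13% in pup 2 and 23.96% in pup 1 and Rbfox2-201 with 15.6% in pup 2 and 12.8% in pup 1. In Rbfox3, 5 coding transcripts each held over 10% in both pups. Rbfox3-203 led with 28.4% in pup 2 and 33.9% in pup 1, and the range of the other 4 was 13.4% (Rbfox3-209, pup 1) to 22.5% (Rbfox3-204, pup 2), with Rbfox3-201 and Rbfox3-205 between.

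Elavl proteins, also called Hu proteins, bind AU-rich and U-rich stretches and stabilise messages. Elavl1 is found in nearly all cells, and Elavl2, Elavl3 and Elavl4 mark neurons. Elavl4 (chr4:110203722-110351909, minus strand) had 135 TPM in pup 2 and 152 TPM in pup 1, and Elavl2 (chr4:91250763-91400785, minus strand) had 72.4 TPM in pup 2 and 74.7 TPM in pup 1. Elavl3 had 41.3 TPM in pup 2 and 51.9 TPM in pup 1, and Elavl1 had 27.9 TPM in pup 2 and 31.0 TPM in pup 1. The 3 neuronal genes together exceeded Elavl1 by a factor of 8.96 ± 0.0394 on the TPM scale (SD, n = 2) and 4.34 on the count scale. The rank of Elavl4 within the family also depended on length: it held 48.9% ± 0.126 of family TPM but 28.1% of family counts. By counts the order of the leading pair was not resolved, with Elavl4 at 28.23% and Elavl2 at 29.98% in pup 2, and Elavl4 at 27.96% and Elavl2 at 27.2% in pup 1. In Elavl4, 2 short noncoding models carried much of the TPM, Elavl4-211 of 869 bases with 34.6% in pup 2 and 40.9% in pup 1 and Elavl4-210 of 464 bases with 20.3% in pup 2 and 12.6% in pup 1. By counts the leading Elavl4 transcript was the coding Elavl4-202, with 36.6% in pup 2 and 40.6% in pup 1, and it took 17.2% of TPM in pup 2 and 18.7% in pup 1.

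Elavl2 and Elavl4 share an alternative exon of 39 bases in the coding region, which lengthens the stretch between RNA-binding domains. The copies lie at chr4:91254141-91254179 and chr4:110209740-110209778, both on the minus strand of GRCm38. They are shown 5′ to 3′ with capitals at the bases where the copies differ, because both genes kept the exon in nearly all transcripts.
Elavl2 39-base exon: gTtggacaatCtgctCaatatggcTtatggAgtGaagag
Elavl4 39-base exon: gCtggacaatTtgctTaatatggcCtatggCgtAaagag
The copies were identical at 33 of 39 bases, or 84.6%, and differed at 6. Transcripts with the exon held 92.7% of informative TPM of Elavl2 in pup 2 and 93.3% in pup 1, and 95.7% of that of Elavl4 in pup 2 and 96.4% in pup 1. The Elavl4 transcripts that include it contain the noncoding Elavl4-211. The 2 main Elavl2 transcripts both include it: Elavl2-208 took 33.9% of TPM in pup 2 and 36.2% in pup 1, and Elavl2-201 took 33.3% in pup 2 and 34.6% in pup 1. Elavl1 and Elavl3 have 1 transcript each in the annotation used.

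Celf proteins bind GU-rich elements; Celf1 and Celf2 are widely expressed and Celf3 to Celf6 are found mainly in the nervous system. The family had the highest summed level of the 12, at 372 ± 37.3 TPM (SD, n = 2). Celf4 led with 155 TPM in pup 2 and 189 TPM in pup 1, which was 46.1% ± 1.86 of the family TPM and 46.6% of its counts. Celf2 followed with 72.4 TPM in pup 2 and 74.6 TPM in pup 1, and Celf1 with 40.2 TPM in pup 2 and 44.0 TPM in pup 1. The remaining neural members were lower, Celf5 at 32.9 TPM in pup 2 and 38.2 TPM in pup 1, Celf6 at 25.7 TPM in pup 2 and 28.9 TPM in pup 1, and Celf3 at 20.1 TPM in pup 2 and 24.1 TPM in pup 1. Together the neural Celf genes had 2.22 ± 0.205 times the TPM of Celf1 and Celf2 and 1.81 times their counts. All 6 genes of the family had a lower TPM in pup 2, and the share of all genes lower in TPM is not given here. On the scaled counts used below, their log2 ratios of pup 2 over pup 1 ran from -0.22 for Celf4 to -0.04 for Celf2. On that scale 49.7% of all genes averaging at least 100 counts were below 0.

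The main transcript was the same in both pups for Celf4 (Celf4-201, 78.9% of TPM in pup 2 and 81.2% in pup 1, the rest on Celf4-202), Celf5 (Celf5-201, 78.4% in pup 2 and 70.9% in pup 1), Celf6 (Celf6-201, 56.5% in pup 2 and 60.2% in pup 1) and Celf2 (Celf2-206, 40.9% in pup 2 and 41.4% in pup 1). Celf6-202, another coding model, added 35.12% of Celf6 TPM in pup 2 and 29.99% in pup 1. In Celf1 it was not, with Celf1-206 leading in pup 2 (22.4% in pup 2 and 7.29% in pup 1) and Celf1-205 in pup 1 (14.1% in pup 2 and 29.97% in pup 1), while Celf1-204 took 21% in pup 2 and 19.54% in pup 1. A 144-base exon of Celf2 (chr2:6549832-6549975, minus strand) was in 79.2% of informative TPM in pup 2 and 77.1% in pup 1. A 63-base exon of Celf6 (chr9:59603808-59603870, plus strand) was in 12.9% in each pup.

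Mbnl proteins, the muscleblind zinc-finger proteins, promote the adult splicing pattern in many tissues and are trapped by expanded CUG repeats in myotonic dystrophy. Mbnl1 (chr3:60472830-60629750, plus strand) had 50.5 TPM in pup 2 and 44.8 TPM in pup 1, and Mbnl2 had 15.9 TPM in pup 2 and 15.7 TPM in pup 1. Mbnl3 had 11 counts in pup 2 and 4 in pup 1, which corresponded to 0.39 TPM in pup 2 and 0.16 TPM in pup 1. Mbnl1 took 74.7% ± 1.21 of the family TPM (SD, n = 2) and 62.1% of its counts. The share depended on length again: Mbnl1-210, a model of 576 bases, took 21.2% of Mbnl1 TPM in pup 2 and 23.5% in pup 1 but 4.16% of its counts in pup 2 and 4.67% in pup 1. By counts the leading Mbnl1 transcript was Mbnl1-214, with 35.4% in pup 2 and 36.0% in pup 1, and 17.0% of TPM in pup 2 and 17.1% in pup 1. The noncoding Mbnl1-212 took 23.0% of TPM in pup 2 and 13.6% in pup 1, so that it led in pup 2 and Mbnl1-210 led in pup 1. Mbnl2 was divided between Mbnl2-202, with 52.9% in pup 2 and 65.5% in pup 1, and Mbnl2-201, with 47.1% in pup 2 and 34.5% in pup 1. With so few reads the transcripts of Mbnl3 were not resolved.

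Mbnl1 carries 4 of the 10 alternative coding exons described by a common rule. Its 54-base exon (chr3:60614683-60614736, plus strand) is known to send the protein to the nucleus, and its inclusion is known to decline as tissues mature. The exon and the 36-base exon downstream (chr3:60621423-60621458, plus strand) are shown 5′ to 3′, in lower case throughout, because they were the Mbnl1 exons with a mixed state that rested on several transcripts of each kind.
Mbnl1 54-base exon: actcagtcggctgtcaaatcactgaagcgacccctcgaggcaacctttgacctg
Mbnl1 36-base exon: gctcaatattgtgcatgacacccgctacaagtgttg
The 54-base exon was in 55.4% of informative TPM in pup 2 and 71.4% in pup 1, the widest gap between the pups among the exons described. Only 33.96% of Mbnl1 TPM in pup 2 and 33.75% in pup 1 was informative for it. The 36-base exon was in 43.0% in pup 2 and 44.0% in pup 1. A 154-base exon (chr3:60615620-60615773) was in 57.6% in pup 2 and 68.9% in pup 1, where skipping rests on the noncoding Mbnl1-212 alone. A 111-base exon (chr3:60596719-60596829) was in 26.8% in pup 2 and 30.7% in pup 1, where inclusion rests on the short Mbnl1-210 alone.

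The Khdrbs genes encode Sam68 (Khdrbs1), made in most tissues, and its neural relatives SLM1 (Khdrbs2) and SLM2 (Khdrbs3), which control an alternative exon of the neurexin genes. Khdrbs1 (chr4:129703164-129742303, minus strand) had 64.0 TPM in pup 2 and 60.6 TPM in pup 1, Khdrbs2 had 28.0 TPM in pup 2 and 30.8 TPM in pup 1, and Khdrbs3 had 12.99 TPM in pup 2 and 13.58 TPM in pup 1. Here the broad form led: the neural relatives together had 0.687 ± 0.0653 of the TPM of Khdrbs1 (SD, n = 2) and 0.403 of its counts. The main transcripts were coding, Khdrbs1-201 with 93.2% of TPM in pup 2 and 88.8% in pup 1, and Khdrbs2-201 with 84.4% in pup 2 and 80.8% in pup 1.

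Srrm4 and Srrm3 promote the inclusion of neuronal microexons, very short exons found in synaptic genes. Srrm3 (chr5:135806890-135874772, plus strand) had 49.3 TPM in pup 2 and 62.5 TPM in pup 1, and Srrm4 had 6.45 TPM in pup 2 and 7.88 TPM in pup 1, a ratio of 7.79 ± 0.201 (SD, n = 2). On the count scale the ratio was 1.20. Srrm3-202, a model of 526 bases, took 70.6% of Srrm3 TPM in pup 2 and 70.8% in pup 1 but 25.7% of its counts in pup 2 and 27.8% in pup 1. Srrm3-204, a model of 3932 bases, took 18.5% of TPM in pup 2 and 15.8% in pup 1 and most of the counts, 60.5% in pup 2 and 55.8% in pup 1. Srrm4 came almost wholly from Srrm4-201, with 98.4% in pup 2 and 99.0% in pup 1.

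Musashi proteins restrain the translation of messages that drive differentiation, and Msi1 is a marker of neural progenitors. Msi1 had 24.7 TPM in pup 2 and 26.3 TPM in pup 1, and Msi2 (chr11:88339382-88718513, minus strand) had 14.2 TPM in pup 2 and 17.4 TPM in pup 1. By TPM Msi1 was higher than Msi2, with a ratio of 1.62 ± 0.157 (SD, n = 2), and by counts the ratio was 0.952. Msi1-208 took 92.0% of Msi1 TPM in pup 2 and 92.2% in pup 1, and Msi2-203 took 72.1% of Msi2 TPM in pup 2 and 64.3% in pup 1. Qk, which encodes Quaking, a protein required for myelin formation, had 52.0 TPM in pup 2 and 54.3 TPM in pup 1. Of its 2 transcripts, Qk-201 took 71.9% in pup 2 and 72.6% in pup 1, and Qk-202, classed as a target of nonsense-mediated decay in the later annotation, took 28.1% in pup 2 and 27.4% in pup 1. The length of both Qk transcripts differs between the annotations, so that class may not describe the model that was counted.

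Fmr1, lost in fragile X syndrome, encodes a protein that represses translation at synapses, and Fxr1 and Fxr2 are its relatives. Fmr1 (chrX:68678541-68717963, plus strand) had 31.3 TPM in pup 2 and 29.3 TPM in pup 1, Fxr2 had 24.4 TPM in pup 2 and 26.8 TPM in pup 1, and Fxr1 had 23.1 TPM in pup 2 and 22.6 TPM in pup 1. On the TPM scale this was the most even of the families. Fmr1 held 38.5% ± 1.77 of TPM, Fxr2 32.5% ± 2.18 and Fxr1 29.0% ± 0.409 (SD, n = 2). By counts Fmr1 held 50.7%, Fxr2 26.3% and Fxr1 23.0%, and the Msi pair was then more even, with 48.7% on Msi1. A 63-base in-frame exon of Fmr1 (chrX:68705861-68705923, plus strand) is printed because it separates the leading Fmr1 transcripts, again 5′ to 3′ in lower case throughout.
Fmr1 63-base exon: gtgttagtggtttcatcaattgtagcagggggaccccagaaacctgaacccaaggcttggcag
Transcripts with the exon held 49.2% of informative TPM in pup 2 and 48.4% in pup 1. Fmr1-201, which includes it, took 30.8% of the gene's TPM in pup 2 and 26.8% in pup 1, and Fmr1-206, which skips it, took 22.2% in pup 2 and 32.2% in pup 1. By TPM the leading transcript thus changed between pups while the share of the exon stayed near an even mix. The authors' TPM intervals of these 2 transcripts overlapped in each pup, so their order was not resolved. For the relatives, Fxr1-202 took 71.6% of Fxr1 TPM in pup 2 and 76.1% in pup 1 with Fxr1-201 holding the rest, and Fxr2-201 took 73.8% of Fxr2 TPM in pup 2 and 62.5% in pup 1. Dnajc19, on the opposite strand of Fxr1 with 178 shared exon bases, held 1.54 times the Fxr1 count.

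Pcbp proteins bind C-rich stretches in many cell types. Pcbp1 (chr6:86524492-86526321, minus strand), a gene without introns, was the highest of the module with 261 TPM in pup 2 and 234 TPM in pup 1, and Pcbp2 had 41.04 TPM in pup 2 and 41.95 TPM in pup 1. Pcbp1 held 85.6% ± 1.15 of the TPM of the pair (SD, n = 2). Pcbp2 was divided between Pcbp2-201, with 50.8% of TPM in pup 2 and 53.6% in pup 1, and Pcbp2-203, with 38.1% in pup 2 and 37.0% in pup 1. Map3k12, on the opposite strand of Pcbp2, shares 1573 of its exon bases and held 1.21 times its count.

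**Figure D3:**
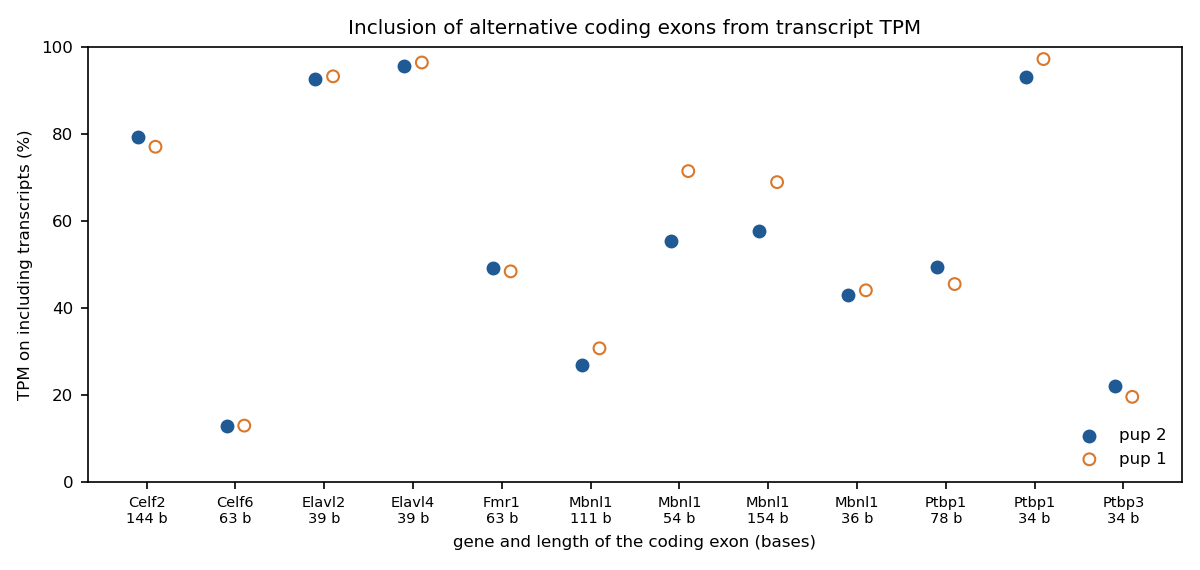
Inclusion of alternative coding exons, as the percent of TPM on transcripts that hold the exon among those that hold or skip it, with a filled point for pup 2 and an open point for pup 1. The widest gap is at the 54-base exon of Mbnl1, with 55.4% in pup 2 and 71.4% in pup 1, while the 39-base exons of Elavl2 and Elavl4 lie above 92% in both pups.

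Across the module, 26 alternative coding exons were found in transcripts whose length agreed between the annotations. Of these, 10 in 7 genes lay between 5% and 95% in both pups with at least 30% of the gene's TPM on informative transcripts, limits chosen after the values were seen, and the Elavl4 exon and the 34-base Ptbp1 exon are shown beside them although they lay outside. These percentages come from the authors' estimates of transcript levels and not from reads across junctions, so that transcripts differing elsewhere enter them.

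**Figure D4:**
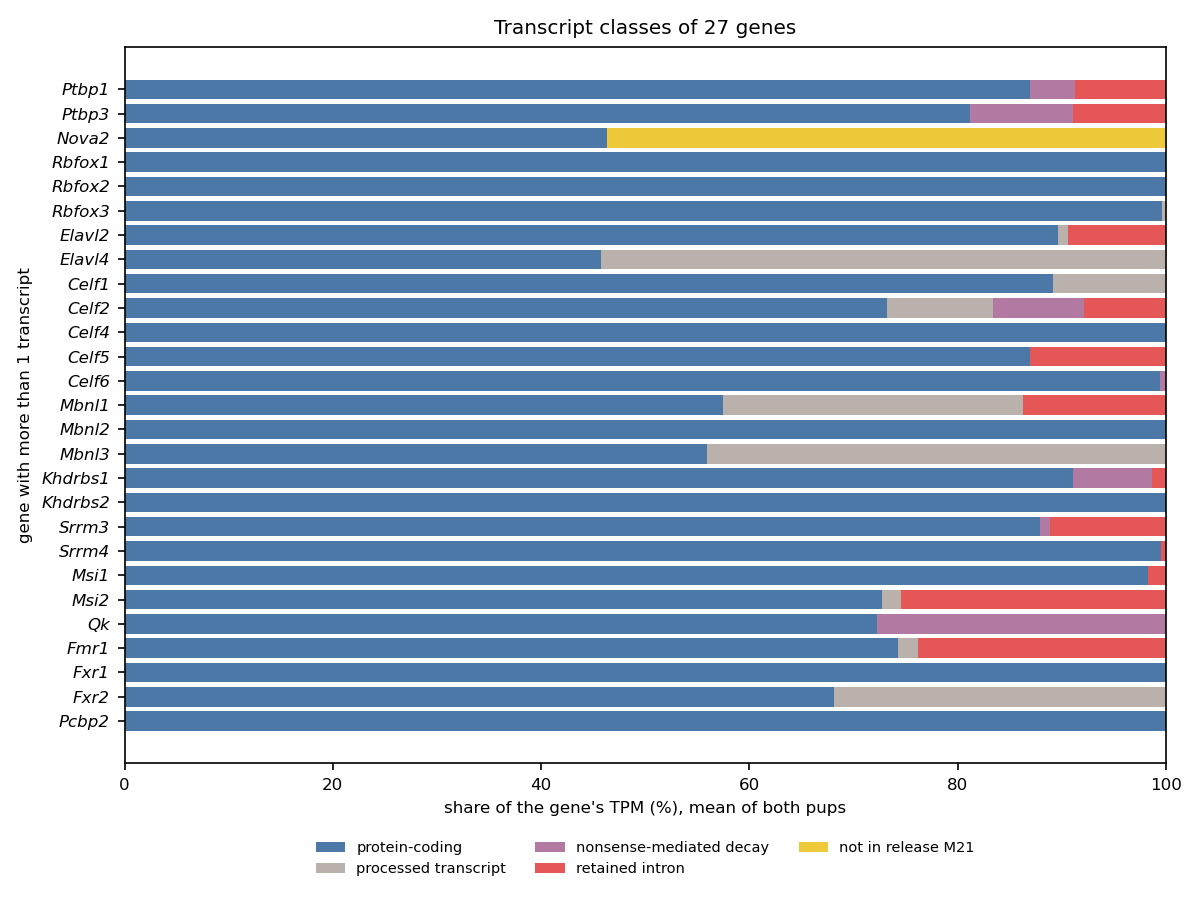
Share of each gene's TPM by annotated transcript class (percent, mean of both pups) for the 27 genes with more than 1 transcript. Retained-intron transcripts, in red, take the largest shares in Msi2 and Fmr1, and no bar is led by them.

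Retained-intron transcripts keep an intron in a spliced RNA and usually stay in the nucleus, and a total RNA library also contains unspliced precursors that match them. Among the 26 genes with several transcripts and at least 5 TPM, none had a retained-intron transcript in the lead in both pups. Over all 8481 such genes the share was 3.04%. Only 13 of the 26 have such a transcript annotated, so that none among so few is near that share. In the 13 genes at that level with any such transcript, the median share of TPM on them was 8.97%, against 7.29% over 4703 genes. The highest shares were in Msi2, with 21.7% in pup 2 and 29.1% in pup 1, and in Fmr1, with 22.4% in pup 2 and 25.2% in pup 1. Single transcripts made up most of these: Msi2-207 took 13.7% in pup 2 and 18.9% in pup 1, and Fmr1-207 took 14.6% in pup 2 and 17.4% in pup 1. Mbnl1 had 11.5% in pup 2 and 15.9% in pup 1, Celf5 had 11.8% in pup 2 and 14.4% in pup 1, Srrm3 had 10.1% in pup 2 and 12.2% in pup 1, and Ptbp1 had 5.08% in pup 2 and 12.4% in pup 1. The share was lower in pup 2 in 11 of the 13 genes and higher in 1, and over all such genes it was lower in pup 2 in 57.6%. On the count scale the median was 4.998%, against 3.693% over all such genes. Msi2 then had 8.26% in pup 2 and 11.8% in pup 1, and Fmr1 had 8.87% in pup 2 and 9.81% in pup 1.

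By TPM, the most abundant transcript was the same in both pups for 21 of 26 genes with several transcripts and at least 5 TPM. This was 80.8%, against 91.8% of all such genes. The 5 that differed were Ptbp1, Nova2, Celf1, Mbnl1 and Fmr1. By counts, only Celf1 and Fmr1 of these still differed, while Ptbp1-216, Nova2-201 and Mbnl1-214 led in both pups. The share of all genes with the same leader by counts is not given here. In each of the 5, the authors' TPM intervals of the 2 leaders overlapped in pup 1, in pup 2 or in both.

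**Figure D5:**
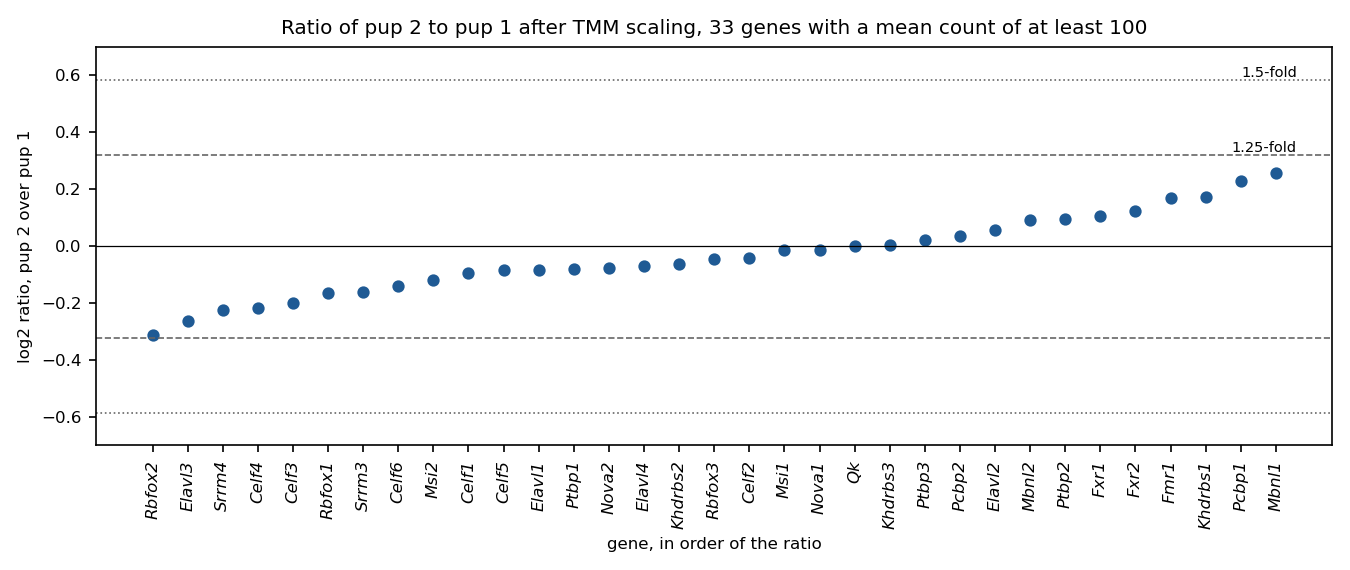
Log2 ratio of counts in pup 2 over pup 1 after TMM scaling, for the 33 genes averaging at least 100 counts, in order of the ratio. Every point lies within the dashed lines at 1.25-fold and the dotted lines at 1.5-fold, from Rbfox2 at -0.31 to Mbnl1 at 0.26.

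The pups were then set against each other by counts scaled with TMM, a method that evens out library size and composition, over genes averaging at least 100 counts. None of the 33 genes of the module above that count differed by 1.5-fold or more, against 2.01% of 13545 genes, of which 1.54% were higher and 0.465% lower in pup 2. At 1.25-fold, a limit added after the data were seen, none differed either, against 8.75%, of which 5.35% were higher and 3.4% lower in pup 2. The log2 ratios of pup 2 over pup 1 ran from -0.31 for Rbfox2 to 0.26 for Mbnl1, with a median of -0.05 for the module and 0.00 for all genes, and the standard error from counting alone was 0.04 for the median gene of the module. After Rbfox2, the lowest log2 ratios were those of Elavl3 at -0.26, Srrm4 at -0.22, Celf4 at -0.22 and Celf3 at -0.20, and after Mbnl1 the highest were those of Pcbp1 at 0.23, Khdrbs1 at 0.17 and Fmr1 at 0.17. Ratios below 0 were found for 20 of 33 genes of the module, against 49.7% of all genes.

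On the TPM scale the authors' intervals were compared for genes averaging at least 100 counts. Those of the pups did not overlap in 12 of 33 genes of the module, against 23.6% of all such genes. These shares were not matched for count, and intervals narrow as counts rise. The 33 genes averaged from 518 counts (Khdrbs3) to 14178.5 (Celf4), while the comparison takes every gene from 100 counts up. Of these 12, Pcbp1 and Khdrbs1 were higher in pup 2, while Rbfox1, Rbfox2, Elavl1, Elavl3, Celf3, Celf4, Celf5, Srrm3, Srrm4 and Msi2 were lower in pup 2. The split by direction over all such genes is not given here. The 12 genes had the same direction after TMM, but some other genes of the module did not. Fxr2 had 24.4 TPM in pup 2 and 26.8 TPM in pup 1, with a log2 ratio of 0.12 after TMM. The intervals cover the estimation within a library and not the spread between animals. In 9 genes the deposited TPM itself lay outside its own interval in at least 1 pup.

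Cell type markers also differed between the pups. The 8 neuron markers summed to 4786 TPM in pup 2 and 5189 TPM in pup 1 and had a median log2 ratio of -0.09, with 6 of 8 below 0. Of the 6 oligodendrocyte markers with enough counts, 3 were at least 1.5-fold higher in pup 2, among them Mbp with 363 TPM in pup 2 and 183 TPM in pup 1, and Mobp with 12.8 TPM in pup 2 and 2.27 TPM in pup 1. The late marker Mog was near the detection limit of 1 TPM, with 1.64 TPM in pup 2 and 0.72 TPM in pup 1. Of the 6 sensory ganglion markers 5 were at least 1.5-fold higher in pup 2, with Avil at 8.55 TPM in pup 2 and 0.70 TPM in pup 1, and 4 of them (Avil, P2rx3, Scn10a and Pirt) past 2-fold. The most abundant, Prph, had 126 TPM in pup 2 and 94.8 TPM in pup 1. Meningeal Ptgds had 2190 TPM in pup 2 and 922 TPM in pup 1, Hoxc8 had 52.0 TPM in pup 2 and 22.8 TPM in pup 1, and Hoxd10 had 63.2 TPM in pup 2 and 105.0 TPM in pup 1. The part of these cell types or of the cord level sampled in the ratios of the module was not tested.

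The module was also set beside 76 other RNA-binding and splicing genes in 5 lists. Broad splicing factors stood higher per length. The 13 SR proteins and relatives, activators of exon inclusion, were all detected with a median of 112 TPM, led by Srsf2 at 417 TPM, Srsf3 at 280 TPM and Srsf5 at 257 TPM and ending with Tra2a at 28.5 TPM. The 20 hnRNP genes, many of them repressors, had a median of 89.8 TPM, led by Hnrnpk at 629 TPM, Hnrnpa2b1 at 336 TPM and Hnrnpa1 at 323 TPM and ending with Raly at 16.2 TPM. The 16 genes of the core spliceosome and its kinases had a median of 93.1 TPM, led by Snrpn at 1046 TPM, Srrm2 at 320 TPM and Snrpb at 220 TPM and ending with Clk2 at 15.9 TPM.

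Among 20 genes of message transport and translation, 18 were detected with a median of 19.7 TPM, with Ewsr1 at 293 TPM and Caprin1 at 136 TPM among the highest. The lowest was Lin28a, a factor of early embryonic cells, at 0.08 TPM. Of 7 splicing regulators of epithelium and muscle, 4 were detected, with Rbpms at 7.90 TPM, Rbm38 at 5.98 TPM and Rbm24 at 2.78 TPM as the highest, and Esrp1, the epithelial regulator, at 0.04 TPM as the lowest. The median of the module, 35.5 TPM, thus lay below those of the SR, hnRNP and core spliceosome lists and above those of the other 2. No gene of the 5 lists averaging at least 100 counts differed between pups by 1.5-fold, and their median log2 ratios were between -0.06 and 0.04.

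Retained-intron shares were higher in some of these lists than in the module. Over genes with at least 5 TPM and any such transcript, the median share of TPM was 18.9% in 8 SR genes, 17.0% in 11 core spliceosome genes, 6.88% in 9 transport and translation genes and 4.88% in 11 hnRNP genes. A retained-intron transcript led in both pups in Srsf5, where such transcripts held 32.1% of TPM in pup 2 and 36.8% in pup 1, and in Sf3b1, with 52.2% in pup 2 and 56.8% in pup 1. Transcripts classed as targets of nonsense-mediated decay, the class known for autoregulated SR genes, had a median share of 9.435% over all 13 SR genes. In the module the summed share per gene (mean of both pups) was highest in Qk at 27.8%, all of it on Qk-202. Next were Ptbp3 at 9.855% (2.50% in pup 2 and 17.2% in pup 1), Celf2 at 8.755% and Khdrbs1 at 7.65%. The median for the module is not given here. Apart from Qk-202, no single transcript of that class in the module reached 10% in both pups, which is another measure than the SR median.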

How the data were processed

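The authors deposited a gene table and a transcript table for each pup. Per the file headers, their columns are estimated or expected counts (not always whole), TPM, posterior mean TPM and the percent of a gene's TPM on each transcript. The interval bounds of TPM were taken as signal values as deposited by the authors, and their confidence level is not stated. The submitters' processing notes name mm10 and GENCODE M4. For aligner, quantifier version and strand setting, the entry is: not given in the sources used here. Counts were not whole in 6 genes of the module, so reads were shared with other genes: Ptbp1, Nova2, Celf2, Celf5, Fmr1 and Pcbp2.

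Names, coordinates, transcript classes and exon sequences came from GENCODE M21 on GRCm38, matched by ID without version. Of 237 transcripts of the module, 218 had the same length in M21, 17 another length and 2 were not in M21, and exons were read only from those with the same length. Expected counts were rounded and scaled by TMM (edgeR 4.0.16, R 4.3.3) over 18105 genes averaging at least 10 counts, with a prior count of 2, and DESeq2 1.42.0 gave alternative factors. The scaling was tested on simulated data. Other steps used Python 3.11.15, pandas 2.3.3, numpy 2.4.6 and matplotlib 3.10.9.

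The rule for the members uses no measured value, but members, companion and marker lists were chosen with earlier results of these data known. Named were all members, their top transcripts, coding, retained-intron or decay transcripts at 10% or more in both pups, the 3 highest and the lowest gene of each companion list, and marker genes at the ends of a list or past 2-fold. Of marker lists that differed little between pups, and of transcripts and markers with few reads, only ranges or counts are given. Some genes of these lists are not reported here by name. The spread is over 2 pups of 1 litter, and floors cover counting error only.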

Additional observations from a re-analysis of the deposited data

How the results depend on the processing

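No paired analysis was possible because the 2 pups form 1 group. The median log2 ratio of the module was below 0 under every scaling run. Counts in place of TPM moved the lead share of 10 families: Ptbp2 65.8%, Nova1 82.1%, Rbfox1 44.5%, Elavl4 28.1%, Mbnl1 62.1%, Khdrbs1 71.3%, Srrm3 54.5%, Msi1 48.7%, Fmr1 50.7% and Pcbp1 79.1%, so that Msi2 then led its family in both pups and Elavl2 its family in pup 2 only. Counts are not divided by length, and transcript lengths differ between paralogs. Posterior mean TPM gave 60.3% for Ptbp2 and 48.6% for Elavl4. The median retained-intron share was 4.998% by counts and 11.5% by posterior mean TPM, and 8.56 to 10.2% with either pup left out. Scaling to spike-in totals, which rest on 603 reads in pup 2 and 335 in pup 1, shifted the median log2 ratio of all genes to -0.29 and of the module to -0.34, and 1 gene of the module, Rbfox2, then passed 1.5-fold. The number of genes detected, the Celf share and the number led by a retained-intron transcript did not move by more than the spread between pups, or by 1.5 times for a count, under the alternatives run. With 2 pups, leaving 1 out cannot move a lead share past that spread, so those runs were no check of the shares. The spread differs by family: by counts Nova1 went from 81.3% to 82.1% and was called moved, while Celf4 went from 46.1% to 46.6% and was not.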

Other observations

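Several companion genes besides Srsf5 and Sf3b1, picked here after their values were seen, had much of their TPM on retained-intron transcripts. Igf2bp2, a message-binding protein, had 38.4% in pup 2 and 54.6% in pup 1. Clk1, a kinase that phosphorylates SR proteins, had 43.8% of TPM on such transcripts in pup 2 and 48.6% in pup 1, and its relative Clk4 had 39.5% in pup 2 and 38.5% in pup 1. Hnrnpl had 41.1% in pup 2 and 36.2% in pup 1, and Srsf3 had 37.2% in pup 2 and 41.9% in pup 1. By counts the share of Clk1 was 55.8% in pup 2 and 57.2% in pup 1. Transcripts classed as targets of nonsense-mediated decay took 32.6% of Tardbp TPM in pup 2 and 34.5% in pup 1, and 28.5% of Tra2b TPM in pup 2 and 24.6% in pup 1. Both genes are known to lower their own messages by such transcripts.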
